A study of Arabidopsis thaliana with 22 samples.

Results

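Described here is the accessibility of DNA in 10 ribosomal protein genes of the Arabidopsis thaliana plastid genome, all outside the large ribosomal protein operon. They are rps2, rps4, rps14, rps16, rps18, rps15 and rps7, named for small ribosomal subunit proteins, and rpl20, rpl33 and rpl32, named for large subunit proteins. They were chosen by name and by their place outside that operon, and are 10 of the 112 plastid genes analysed. Of these, rps2, rps4, rps14, rps16, rps18, rpl20 and rpl33 lie in the large single-copy region of the circular plastid genome. The genes rps15 and rpl32 lie in the small single-copy region, and rps7 lies in the inverted repeat, where its 2 copies were summed. All 10 passed the filter on low counts, and their lengths ran from 159 bp for rpl32 to 1105 bp for rps16, which holds an intron.

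The assay was ptATAC-seq, in which the transposase Tn5 inserts sequencing adapters into plastid DNA that it can reach. Counts in the nucleoid fraction, the plastid genome with its bound proteins, were compared with counts in the naked fraction, plastid DNA without them, which measures how Tn5 cuts the same DNA when it is bare. Both groups came from leaves of wild-type plants of ecotype Col-0 that were 14 days old, both were fixed with 4% formaldehyde for 4 h and made into libraries with a Nextera kit, and the labels give no other difference between them than the fraction. The labels list 11 replicates of each. The counts of nucleoid replicates 9 and 10 were identical at each of 154477 positions, less apart than sampling noise allows, and these columns were used as 1 sample, leaving 10 nucleoid and 11 naked libraries. Nothing in the labels says that replicates came from separate plants, so p-values measure only the spread between these libraries, which may be technical.

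Plastid ribosomes are of the bacterial type and translate the messages of the plastid genome, chiefly those for photosynthesis and for the plastid's own gene expression. Their RNAs are encoded in the plastid, while their proteins are divided between the plastid and nuclear genomes. Many plastid genes for ribosomal proteins stand together in an operon that descends from bacterial ribosomal protein operons, whereas the genes described here are scattered among other transcription units: rps2 precedes the genes of ATP synthase, rps14 follows the photosystem I genes psaA and psaB, rpl33 and rps18 are neighbours, and rps7 lies beside the 3′ part of rps12 and ndhB.

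Signal is a gene's mean count per position, given as percent of the library's own mean over all plastid positions, so that 100 stands for the genome mean and only relative accessibility is measured. Depth ranged from 202725 to 1813905 counts in nucleoid libraries and from 105763 to 1195649 in naked ones, and 8 nucleoid and 5 naked libraries had more than 600000. Naked replicates 9, 10 and 11 stood apart from the rest. The unevenness of their coverage, measured in 200 bp windows as the SD of log2 signal, was 1.43, 1.36 and 1.63, against 0.44 to 0.96 in nucleoid libraries and at most 1.01 in naked replicates 1 to 8. Results are therefore given with and without these 3 libraries, and also for the libraries with more than 600000 counts.

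The 10 genes spanned a wide range of signal, and the order was similar in both fractions. The highest was rps7, which encodes a small-subunit protein that binds 16S ribosomal RNA, at 126 ± 6.7% of the genome mean in nucleoids (SD, n = 10) and 135 ± 15.1% in naked DNA (SD, n = 11). The lowest was rpl32, whose large-subunit protein is essential in tobacco, at 43.7 ± 8.3% (SD, n = 10) and 36.7 ± 18.1% (SD, n = 11), the lowest of all 112 genes in both fractions, although in naked DNA it ranked 111 of 112 without naked replicates 9 to 11. In nucleoids the order of means was rps7, rps2, rps4, rpl20, rps14, rpl33, rps18, rps16, rps15 and rpl32. In naked DNA rps14 stood at position 2 instead of 5 and rps16 passed rps18, and the rest kept that order.

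**Figure D1:**
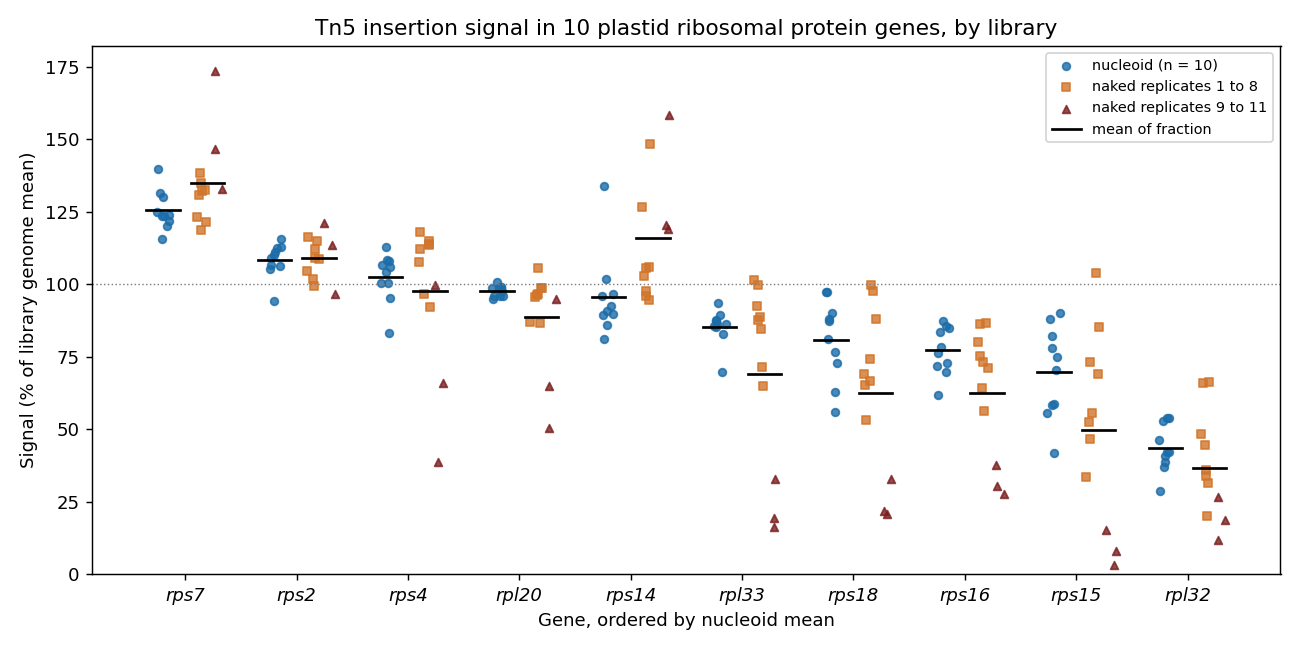
Signal of each gene (y axis, percent of the library's genome mean) in each library, with genes ordered by their nucleoid mean on the x axis. Circles are nucleoid libraries, squares naked replicates 1 to 8, triangles naked replicates 9 to 11 and black bars the mean of each fraction; the triangles lie far below the other points in rpl33, rps18, rps16 and rps15.

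Most neighbours in this order differed by less than the spread of their difference over libraries. In nucleoids, rps7 exceeded rps2 by a mean log2 difference of 0.21 ± 0.09 (SD) in 10 of 10 libraries, and rps15 exceeded rpl32 by 0.65 ± 0.12 in 10 of 10. In the other 7 neighbouring pairs the mean difference was below its SD over libraries, though rps2 exceeded rps4 in 9 of 10 libraries and rps16 exceeded rps15 in 8 of 10. The closest of these was rpl20 above rps14, at 0.04 ± 0.21 in 7 of 10 libraries. In naked DNA the only neighbours whose mean difference exceeded its SD were rps7 and rps14, at 0.23 ± 0.17 in 10 of 11 libraries.

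For the gene as a whole, 1 of the 10 genes passed the test between fractions, rps14, and it was lower in nucleoids. Over all genes 38 of 112 passed (33.9%), 11 higher (9.82%) and 27 lower (24.1%), with limma's moderated test on log2(signal + 1) and an adjusted p under 0.05. At an unadjusted p under 0.05, 2 of the 10 and 56 of the 112 passed. The fold change was above 0 for 7 of the 10 genes, with a median log2 fold change of 0.28 against 0.10 over all 112. Of the 78 protein-coding genes alone, 18 passed, 11 higher and 7 lower, with a median of 0.16. Without naked replicates 9 to 11 the medians of the 10 and the 112 were 0.02 and -0.01. In that fit 0 of the 10 passed against 26 of 112 (23.2%), and 11 of the 78 protein-coding genes did, with a median of 0.02. Scaling to the median window in place of the genome mean gave medians of 0.13 for the 10 and -0.05 for the 112. It left 1 of the 10 lower and turned the split over all genes to 1 higher and 30 lower.

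Among genes of the small subunit, rps14 encodes a protein of the head of the subunit. Its signal in nucleoid libraries was 81.0% at the lowest, 91.5% at the median and 134% at the highest, and in naked libraries 94.7%, 106% and 159%. In 9 of 10 nucleoid libraries it was below the naked median and in 6 it was below every naked library, while nucleoid replicate 4 held the highest nucleoid value. The means were 95.8 ± 14.7% (SD, n = 10) and 116 ± 21.4% (SD, n = 11), a log2 fold change of -0.27 ± 0.10 (SE) with a limma adjusted p of 0.039. The call depended on single libraries. It was kept in 9 of 21 fits that each left out 1 library, and was lost without any of nucleoid replicates 1, 2, 3, 5, 7, 8 and 9 or naked replicates 3, 6, 9, 10 and 11, with log2 fold changes from -0.32 to -0.22 and limma adjusted p from 0.0093 to 0.075. Without naked replicates 9 to 11 together the change was -0.19 ± 0.09 (limma adjusted p = 0.138). In the deeper libraries, where 0 of the 10 genes and 15 of the 112 passed (13.4%), it was -0.11 ± 0.11 (limma adjusted p = 0.514).

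The gene rps2, whose protein is a late addition to the small subunit in bacteria, had the smallest difference between fractions of the 10 genes. Its signal ran from 94.4% to 116% in nucleoid libraries (median 109.6%) and from 96.5% to 121% in naked libraries (median 109.2%). The fractions overlapped almost completely, with 5 nucleoid libraries above and 5 below the naked median. The log2 fold change was -0.01 ± 0.05 (SE), and the limma adjusted p was 0.939. Without naked replicates 9 to 11, which were at 121%, 114% and 96.5% and spread beyond the 99.3% to 116% of naked replicates 1 to 8, the change was 0.00033 ± 0.042 (limma adjusted p = 0.994).

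The gene rps7 ranged from 116% to 139.8% in nucleoid libraries (median 123.9%) and from 119% to 174% in naked libraries (median 133%). The fractions overlapped, with 9 of 10 nucleoid libraries under the median of the naked ones. It differed by -0.10 ± 0.06 on the log2 scale (SE; limma adjusted p = 0.142), and by -0.04 ± 0.04 without naked replicates 9 to 11. The gene rps4 encodes a protein that binds 16S ribosomal RNA early in assembly of the subunit, and ranged from 83.1% to 113% in nucleoids (median 105%) and from 38.7% to 118% in naked DNA (median 108%). Its log2 fold change was 0.12 ± 0.15 with all libraries and -0.08 ± 0.06 without naked replicates 9 to 11, of which replicates 9 and 11 were at 38.7% and 66.0%. Neither value passed the test (limma adjusted p = 0.468 and 0.361).

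The remaining genes of the small subunit, rps16, rps18 and rps15, had wider spreads in naked DNA. For rps16 the nucleoid libraries ran from 61.9% to 87.5% (median 77.2%) and the naked libraries from 27.6% to 86.8% (median 71.1%). For rps18, which encodes a protein essential for cell survival in tobacco, the ranges were 56.0% to 97.4% (median 84.2%) and 20.7% to 99.6% (median 66.8%). In each of rps16, rps18 and rps15, 4 naked libraries lay below every nucleoid library. The log2 fold changes were 0.39 ± 0.19 for rps16 and 0.52 ± 0.25 for rps18 (limma adjusted p = 0.0996 and 0.101), and 0.06 ± 0.08 and 0.09 ± 0.13 without naked replicates 9 to 11.

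The gene rps15, whose protein binds 16S ribosomal RNA, had the highest positive log2 fold change of all 112 genes, at 0.93 ± 0.46 (SE), and did not pass the test (limma adjusted p = 0.101). Its nucleoid libraries ran from 42.0% to 90.2% with a median of 72.6%, and its naked libraries from 3.1% to 104% with a median of 52.7%. The 3 lowest of these 21 values were naked replicates 11, 9 and 10, at 3.1%, 8.1% and 15.4%, and the lowest rested on 11 counts. Without them the change was 0.14 ± 0.19, and in the deeper libraries it was 0.05 ± 0.16. In the deeper libraries rps15 stood at 75.1 ± 12.1% in nucleoids (SD, n = 8) and 74.1 ± 21.3% in naked DNA (SD, n = 5). The 2 shallower nucleoid libraries were at 42.0% and 55.4%, and the 6 shallower naked libraries at 29.3 ± 25.4% (SD, n = 6). With a depth term in the model the change of rps15 was 0.51 ± 0.47 (limma adjusted p = 0.457), and -0.03 ± 0.16 with a depth term and without naked replicates 9 to 11.

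**Figure D2:**
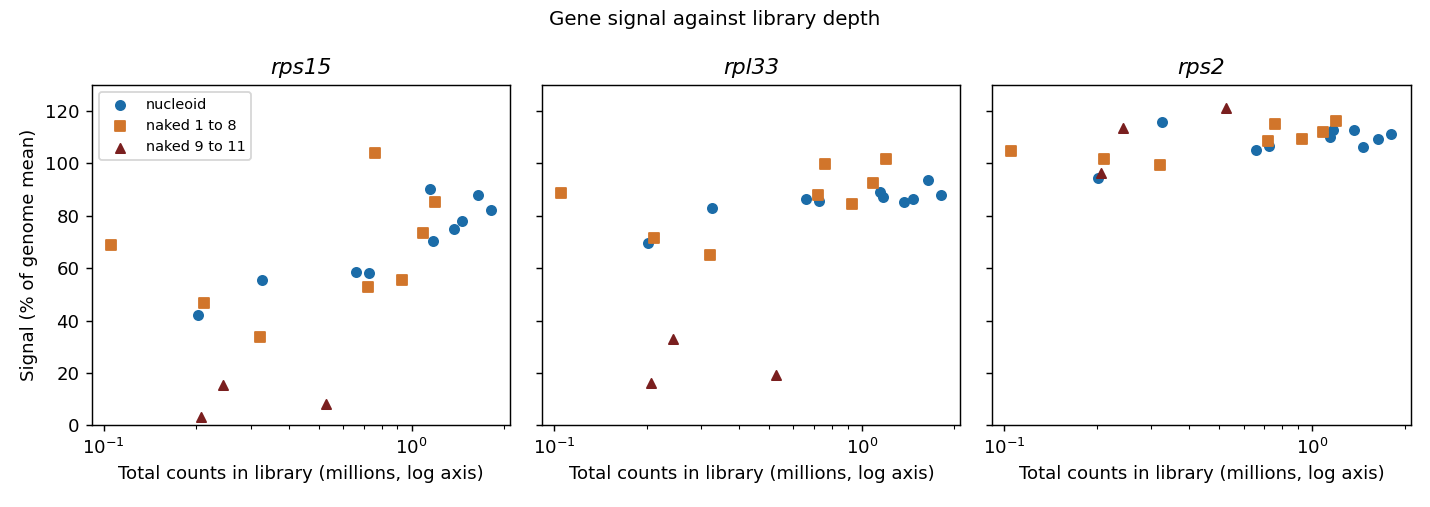
Signal of rps15, rpl33 and rps2 (y axis, percent of the genome mean) against the total counts of each library (x axis, log scale), with circles for nucleoid libraries, squares for naked replicates 1 to 8 and triangles for naked replicates 9 to 11. Signal of rps15 is low in most shallow libraries of both fractions, at 42.0% and 55.4% in the 2 shallow nucleoid ones, whereas rps2 stays between 94.4% and 121% at every depth.

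Of the large-subunit genes, rpl20, whose product binds 23S ribosomal RNA, was the most uniform across nucleoid libraries. It ran from 95.1% to 101% in nucleoids (median 98.2%) and from 50.5% to 106% in naked DNA (median 95.5%). Below every nucleoid library lay 5 naked libraries, and 1 lay above. The means were 97.7 ± 1.9% (SD, n = 10) and 88.7 ± 16.5% (SD, n = 11), and the log2 fold change was 0.17 ± 0.10 (SE; limma adjusted p = 0.155). It was 0.03 ± 0.04 without naked replicates 9 to 11 and 0.01 ± 0.04 in the deeper libraries.

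The gene rpl33 encodes a large-subunit protein that tobacco needs for recovery from chilling. Its nucleoid libraries ran from 69.8% to 93.6% (median 86.3%) and its naked libraries from 16.3% to 102% (median 84.6%). Naked replicates 9, 10 and 11 were at 19.2%, 32.8% and 16.3%, below every other library. The log2 fold change was 0.52 ± 0.29 (limma adjusted p = 0.134) with them and -0.01 ± 0.08 (limma adjusted p = 0.982) without them.

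For rpl32 the nucleoid libraries ran from 28.8% to 54.1% (median 42.1%) and the naked libraries from 11.7% to 66.1% (median 34.0%). The median of the naked libraries was exceeded in 9 of 10 nucleoid libraries, while 4 naked libraries lay below and 2 above all nucleoid libraries. The log2 fold change was 0.39 ± 0.24 (SE; limma adjusted p = 0.166), and 0.08 ± 0.19 without naked replicates 9 to 11. With all libraries the SE was 0.46 for rps15 and 0.24 for rpl32, against 0.29 for rpl33 and 0.25 for rps18 in the large single-copy region. Without naked replicates 9 to 11 the SE of both rps15 and rpl32 was 0.19, the largest among the genes described. The other 10 protein-coding genes of the small single-copy region had a median log2 fold change of 0.43 with all libraries and 0.06 without those 3. In either fit 0 of those 10 passed.

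**Figure D3:**
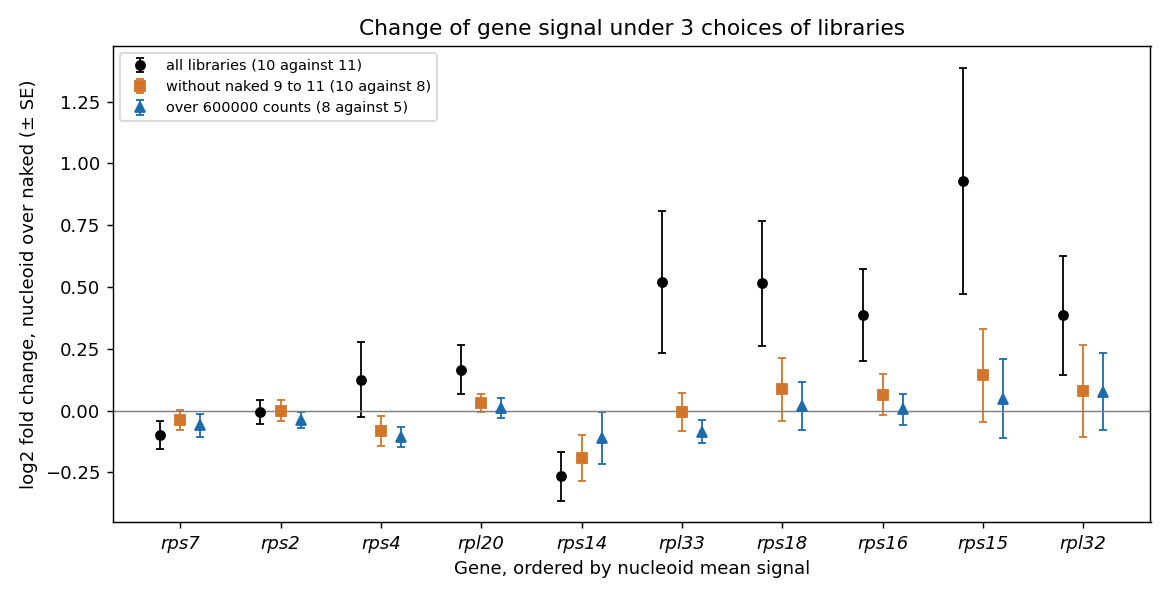
Log2 fold change of nucleoid over naked signal (y axis, ± SE) for each gene, ordered on the x axis by nucleoid mean. Circles use all libraries, squares leave out naked replicates 9 to 11 and triangles use libraries with more than 600000 counts; rps15 moves from 0.93 to 0.14 and 0.05, and rpl33 from 0.52 to -0.01 and -0.08.

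The ribosomal protein genes of the large operon are given for comparison. Of these 10, 4 were higher in nucleoids and 0 lower, with a median log2 fold change of 0.17. Examples were rps3 at 0.54, rpl22 at 0.33 and rpl14 at 0.19 (limma adjusted p = 0.041, 0.037 and 0.032). These calls too depended on single libraries, since rps3 passed in 8 of 21 fits that left out 1 library, rpl22 in 10 and rpl14 in 17. Naked replicate 10 and nucleoid replicates 8 and 9 were among the libraries whose loss ended each of these calls, with naked replicates 9 and 11 for rps3 and rpl22, at limma adjusted p of up to 0.078, 0.068 and 0.062 in the order rps3, rpl22 and rpl14. Of the 10, 2 passed without naked replicates 9 to 11, among them rpl23 at 0.18 (limma adjusted p = 0.022). In that fit rps3, rpl22 and rpl14 did not pass (limma adjusted p = 0.063, 0.141 and 0.110). In the deeper libraries and with a depth term 0 of the 10 passed, against 15 and 20 of all 112 genes. Their medians in these fits were 0.05 and 0.12. The first exon of the split gene rps12, which encodes the decoding-site protein of the small subunit, was lower in nucleoids at -0.41 ± 0.08 (limma adjusted p = 0.001) and was called in every one of the 21 fits. The difference between the 10 genes outside and the 10 inside the operon was not tested.

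The variation of the 10 genes over the 21 libraries was set against that of all other genes, as the root mean square difference of centred log2 values. The genes nearest to the mean of the 10 were ndhD at 0.090, ndhE at 0.098 and ndhC at 0.101, which encode subunits of the chloroplast NADH dehydrogenase-like complex. Taken one by one, rps2 was nearest to rpoB at 0.04, rps7 to atpE at 0.06 and rps14 to psbC at 0.14. The gene rps15 had no close neighbour, with ndhA nearest at 0.40. These are descriptions over libraries that share their depth and unevenness across genes.

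Most of the 10 genes had more signal than the DNA beside them in every library. Gene and flanks were not compared in this way for the other plastid genes, so this is not shown to be particular to the 10. For rps2, rps4, rps16, rps18, rpl20 and rpl33 the gene exceeded the mean of the 200 bp on both sides in 10 of 10 nucleoid and 11 of 11 naked libraries. In nucleoids the mean log2 difference between gene and flanks was 0.92 ± 0.25 for rps2, 0.92 ± 0.20 for rpl33, 0.80 ± 0.19 for rps18, 0.68 ± 0.11 for rps4, 0.58 ± 0.30 for rpl20 and 0.44 ± 0.09 for rps16 (SD, n = 10). The same differences in naked DNA were 1.07 ± 0.27, 1.27 ± 0.20, 1.01 ± 0.17, 0.97 ± 0.23, 0.73 ± 0.37 and 0.58 ± 0.09 (SD, n = 11). In each of these 6 genes the naked mean was the larger. Without naked replicates 9 to 11 the naked means of rpl20 and rps2 were 0.59 and 0.96, close to the nucleoid values, and those of rpl33, rps18, rps4 and rps16 were 1.24, 1.00, 0.90 and 0.61. Whether the fractions differed in this measure was not tested. The genes rps15 and rpl32 did not stand out from the mean of their flanks, at -0.01 ± 0.21 and 0.04 ± 0.11 in nucleoids. For rps15 that mean joins unlike sides, at 47.8% upstream and 90.7% downstream in nucleoids, with the gene at 69.8%. The genes rps7 and rps14 exceeded theirs by 0.085 ± 0.080 and 0.19 ± 0.19. In naked DNA the differences were -0.18 ± 0.43 for rps15, 0.22 ± 0.24 for rpl32, 0.31 ± 0.13 for rps7 and 0.38 ± 0.27 for rps14. Without naked replicates 9 to 11 these naked means were 0.01, 0.19, 0.25 and 0.32 in the same order.

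**Figure D4:**
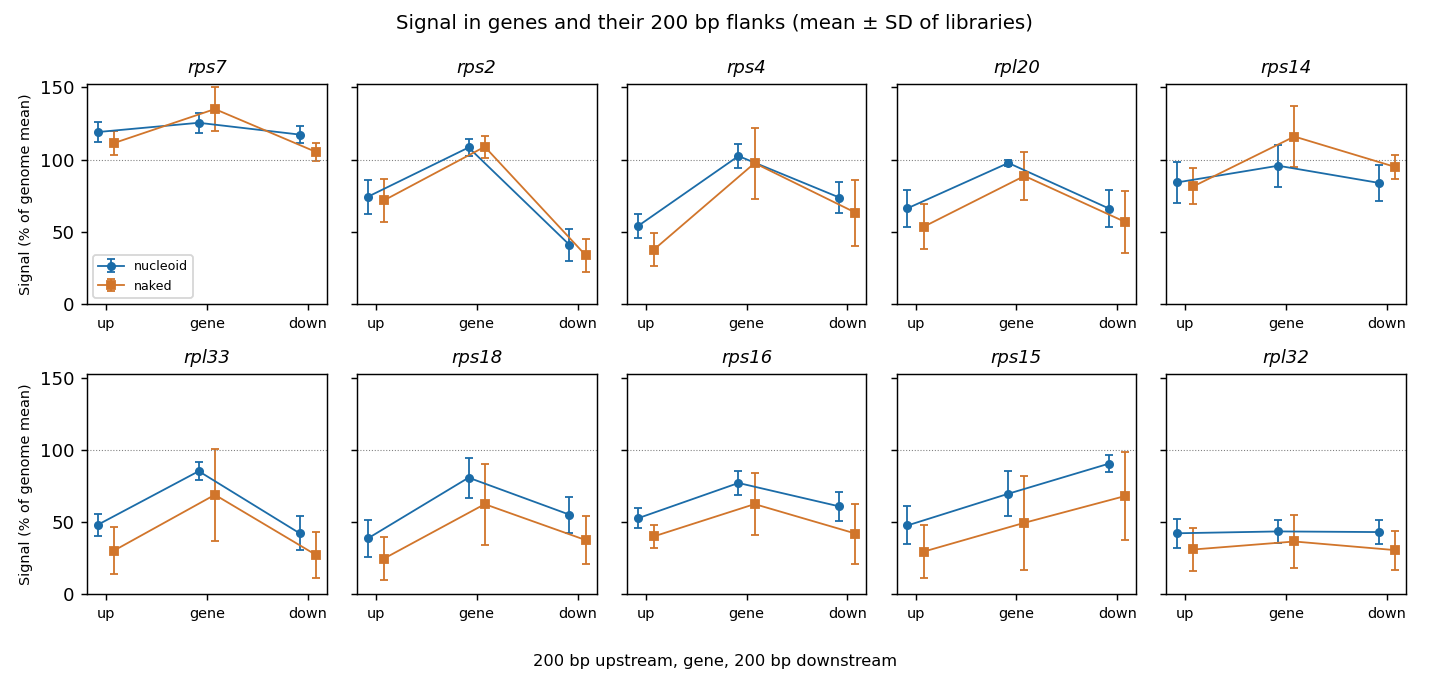
Mean signal ± SD (y axis, percent of the genome mean) of each gene and of the 200 bp upstream and downstream of it (x axis) in nucleoid (circles, n = 10) and naked libraries (squares, n = 11). The gene rises above both flanks in rps2, rps4, rpl20, rpl33, rps18 and rps16, and is level with them in rpl32.

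The fold change was above 0 in 19 of the 20 flanks of 200 bp beside the 10 genes, and in 173 of the 224 flanks of all genes. The flanks of the neighbours rpl33, rps18 and rpl20 overlap in part and are not separate measurements. Of the 20, 5 passed the test and all 5 were higher in nucleoids, against 70 of the 224 flanks of all genes (31.2%), of which 47 were higher (21%) and 23 lower (10.3%). The median log2 fold change was 0.48 over the 20 and 0.24 over the 224. The 200 bp upstream of rps4 stood at 53.8 ± 8.5% in nucleoids (SD, n = 10) and 37.6 ± 11.4% in naked DNA (SD, n = 11), a log2 fold change of 0.55 ± 0.16 (limma adjusted p = 0.029). Upstream of rps16 the values were 52.7 ± 7.0% and 40.2 ± 7.9%, a change of 0.40 ± 0.11 (limma adjusted p = 0.029). Upstream of rpl33, downstream of rps18 and downstream of rps7 the changes were 0.89 ± 0.30, 0.66 ± 0.24 and 0.15 ± 0.05 (limma adjusted p = 0.044, 0.048 and 0.038). None of the 20 passed without naked replicates 9 to 11, where 1 of the 224 did (0.446%), and none of the 224 passed in the deeper libraries or with a depth term, although 44 and 49 had an unadjusted p under 0.05 by limma. The sign stayed positive without the 3 libraries in all 5, at 0.35 upstream of rps4, 0.29 upstream of rps16, 0.35 upstream of rpl33, 0.30 downstream of rps18 and 0.15 downstream of rps7. Leaving out single libraries also ended these calls, which held in 18, 15, 7, 5 and 9 of 21 fits in the same order, and the count over all flanks ranged from 1 to 119. For rps4 the call was lost without nucleoid replicate 1, 2 or 6, with a highest limma adjusted p of 0.057. For rps16 it was lost without nucleoid replicate 1, 2, 6 or 8 or naked replicate 7 or 10 (up to 0.059 by limma). Upstream of rpl33 it was lost without any nucleoid replicate except 11 or any of naked replicates 7 to 11 (up to 0.084 by limma), downstream of rps18 without any nucleoid replicate except 11 or any of naked replicates 5 to 11 (up to 0.085 by limma), and downstream of rps7 without any nucleoid replicate except 4 and 11 or naked replicate 7, 8, 10 or 11 (up to 0.068 by limma).

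In some of the 10 genes, windows of 50 bp differed between fractions where the gene mean did not. Of the 89 windows tested in the 10 genes, 18 passed, 11 higher and 7 lower in nucleoids. Over the whole plastid genome 680 of 2558 passed (26.6%), of which 441 were higher (17.2%) and 239 lower (9.34%). The 10 genes thus held a smaller share of windows that passed than the genome did, and that difference was not tested. The genes rps2 and rps7 held windows of both directions. The genes rps15 and rpl32 held none that passed. Of the 18, 10 also passed without naked replicates 9 to 11. These were 11.2% of the 89 windows, against 355 of 2558 over the genome (13.9%). In every fit that left out 1 library 9 of the 18 passed, a count that was not made over the genome. A further 4 windows passed without the 3 libraries and not with all libraries. All were lower in nucleoids, at -0.28 and -0.69 in rps4, -0.32 in rpl33 and -0.60 in rps18. All 4 also passed in the deeper libraries (limma adjusted p from 0.044 to 0.048), and none passed with a depth term. The balance of directions thus turned with the libraries used. There were 5 windows higher and 9 lower without naked replicates 9 to 11, against 400 of 2559 over the genome (15.6%), 8.56% higher and 7.07% lower. In the deeper libraries 2 were higher and 5 lower, against 172 of 2559 (6.72%), 3.52% higher and 3.2% lower. With a depth term 1 was higher and 4 lower, against 251 of 2558 (9.81%), 3.87% higher and 5.94% lower. In all 4 of these fits 2 of the 89 windows of the 10 genes passed (2.25%), against 94 of 2558 over the genome (3.67%). Both of these 2 windows lie in rps2.

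The first of these, at positions 15451 to 15500 of the plastid genome (TAIR10), has its centre 248 bp into rps2 in the direction of reading. Its signal in nucleoid libraries was 33.5% at the lowest, 63.7% at the median and 90.6% at the highest, and in naked libraries 77.6%, 91.9% and 129%. Every nucleoid library, 10 of 10, was under the median of the naked ones. The nucleoid libraries fell apart into replicates 1 to 5, at 75.0% to 90.6%, and the other 5, at 33.5% to 52.4%, so that their mean lies between these groups. The means were 63.2 ± 22.1% (SD, n = 10) and 101 ± 17.4% (SD, n = 11), which is -0.73 ± 0.18 on the log2 scale (SE, limma adjusted p = 0.0083). Without naked replicates 9 to 11 the change was -0.71 (limma adjusted p = 0.019) and in the deeper libraries -0.63 (limma adjusted p = 0.049), and it passed in all 21 fits that left out 1 library.

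The second, at positions 15551 to 15600, has its centre 148 bp into the gene and moved the other way. It was chosen for naming after its values were seen. Nucleoid libraries held 65.5% at the lowest, 84.7% at the median and 107% at the highest, and naked libraries 35.1%, 60.0% and 74.0%. Every nucleoid library, 10 of 10, exceeded the median of the naked ones. The means were 86.5 ± 13.5% (SD, n = 10) and 59.5 ± 11.7% (SD, n = 11), which is 0.54 ± 0.12 on the log2 scale (SE, limma adjusted p = 0.0055), with 0.54 (limma adjusted p = 0.014) without naked replicates 9 to 11 and 0.44 (limma adjusted p = 0.049) in the deeper libraries. Within libraries, this window exceeded the first in 6 of 10 nucleoid and 0 of 11 naked libraries. Both windows had already passed in opposite directions in these same libraries, so this count restates those differences and is not separate evidence. A further rps2 window 398 bp into the gene was lower at -0.26 (limma adjusted p = 0.019). These windows lie in a gene whose overall signal did not differ detectably between fractions.

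**Figure D5:**
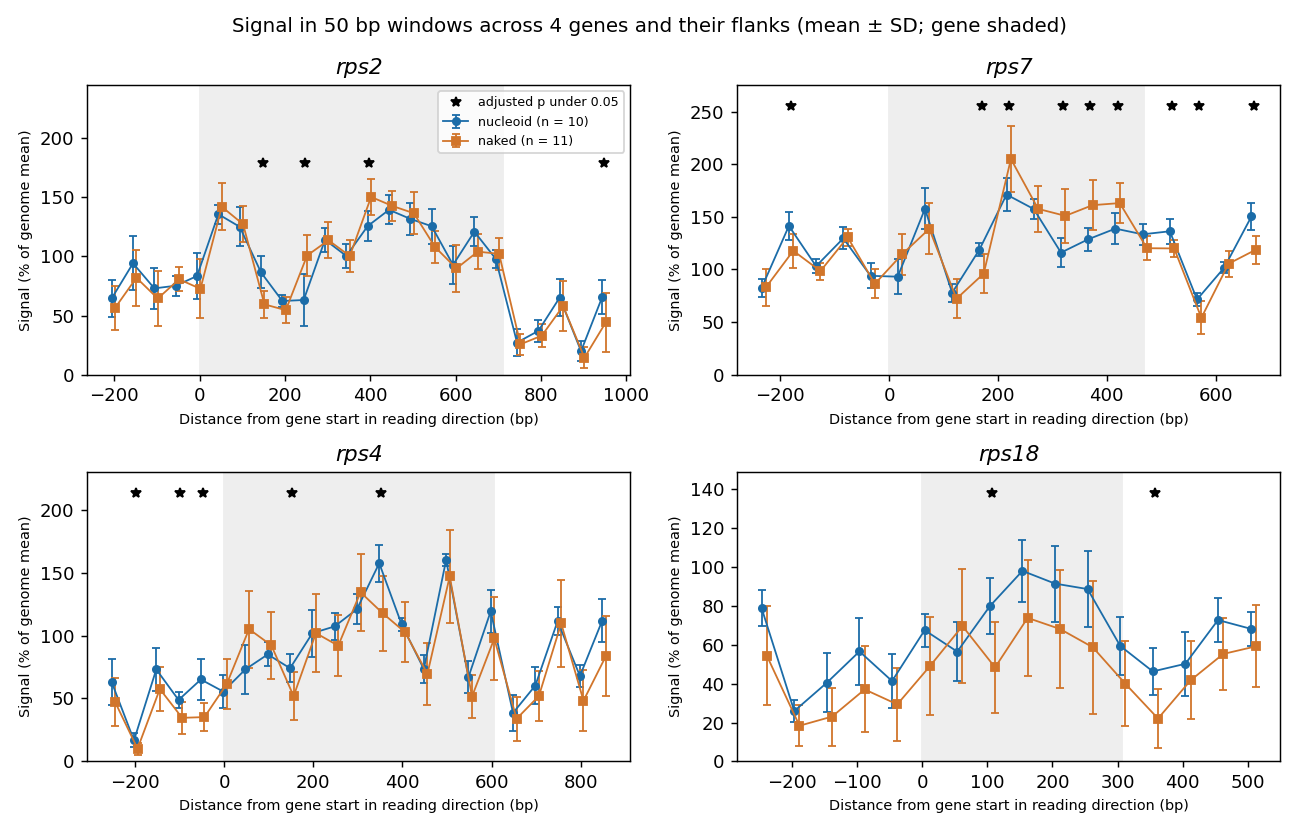
Mean signal ± SD (y axis, percent of the genome mean) in 50 bp windows against distance from the gene start in the direction of reading (x axis, bp) for rps2, rps7, rps4 and rps18, with nucleoid libraries as circles (n = 10), naked libraries as squares (n = 11), the gene shaded and stars over windows with a limma adjusted p under 0.05. In rps2 the nucleoid line lies above the naked line 148 bp into the gene and below it 248 bp into the gene.

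In rps7, 4 windows were lower and 1 was higher in nucleoids among 9 tested, and these and the other windows given by distance alone were likewise chosen after their values were seen. The lower ones had centres 220, 320, 370 and 420 bp into the gene, with log2 fold changes of -0.25, -0.37, -0.31 and -0.23. The higher one lay 170 bp into the gene at 0.32. Of these, the windows at 170, 320 and 370 bp passed in every fit that left out 1 library and also without naked replicates 9 to 11. None of the rps7 windows passed in the deeper libraries. The single window of rps14 that passed, 264 bp into the gene, was lower at 108% against 159%, a log2 fold change of -0.52 (limma adjusted p = 0.012), and -0.33 (limma adjusted p = 0.035) without the 3 libraries. It did not pass in the deeper libraries, at -0.26 (limma adjusted p = 0.157), or with a depth term, at -0.42 (limma adjusted p = 0.060).

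With all libraries, every other window that passed was higher in nucleoids. In rps16, which held the most of these, 4, the changes were 0.63, 0.67, 0.66 and 0.58, of which 0 passed without naked replicates 9 to 11. The largest changes were at positions 67551 to 67600 in rpl33, at 0.90 ± 0.32 (limma adjusted p = 0.045), and at positions 68001 to 68050 in rps18, at 0.90 ± 0.28 (limma adjusted p = 0.028). In both windows the naked median was exceeded by each of the 10 nucleoid libraries. These changes were 0.32 and 0.45 without naked replicates 9 to 11 (limma adjusted p = 0.077 and 0.0495). The rpl33 window passed in 8 of 21 fits that left out 1 library, and the rps18 window in 19, being lost without nucleoid replicate 6 or naked replicate 10. The rps16 windows at positions 5601 to 5650 and 5751 to 5800, at 55.8 ± 9.1% against 38.3 ± 17.5% and 87.5 ± 17.9% against 59.4 ± 26.2% (SD, n = 10 and n = 11), passed in 9 and 8 of 21. These 3 calls were lost without naked replicate 7, 9, 10 or 11 and without most of nucleoid replicates 1 to 9, and that at 5751 also without naked replicate 8, with limma adjusted p up to 0.084 in rpl33 and 0.077 in rps16. In rps4, windows 152 and 352 bp into the gene were higher at 0.59 and 0.47, and in rpl20 a window 340 bp into the gene at 0.58. Without naked replicates 9 to 11 that at 152 bp did not pass (limma adjusted p = 0.086), and those at 352 and 340 bp did. Each rps4 window passed in 17 of 21 fits that left out 1 library, and the rpl20 window in all 21. None of these 3 windows passed in the deeper libraries or with a depth term.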

How the data were processed

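The authors deposited 1 table of counts per position of the plastid genome with 22 columns, 1 per library. Per the submitters' processing notes, Trim Galore 0.4.1, Bowtie2 and bedtools 2.25.0 were used with build TAIR10. Duplicate removal, the shift of read ends for Tn5 and the handling of reads that match both repeat copies are not given in the sources used here. The values were whole numbers, and no column was unmatched. Gene limits came from a RefSeq table of assembly TAIR10.1, which shares the plastid coordinates as far as the mirror axis of the repeats shows (r = 0.93), and gene coordinates are not printed. It gives no strand, so reading directions of the 10 genes are textbook knowledge, and flanks on both sides of all genes stood in for upstream windows.

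Signal was tested with limma 3.58.1 (R 4.3.3) by a two-sided moderated test of log2(signal + 1) with p-values adjusted after Benjamini and Hochberg over all genes, flanks or 50 bp windows, a threshold of 0.05 and a minimum mean scaled count of 10. Fold changes are on that log2 scale and understate changes of low signal. The scripts were tested on simulated data. A count model was planned as an alternative and not run, because the unit check did not accept these columns, so limma voom was the alternative. All 10 genes are named. Windows given by position are the 5 with the largest change among those that passed, and the second rps2 window. That window and the windows given without positions were chosen after their values were seen. The genes, lists and most alternatives were chosen with earlier results of these data known. Numbered replicates were not shown to be pairs, and the main fits treated the libraries as unpaired. Some genes of the comparison list are not reported here by name.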

Additional observations from a re-analysis of the deposited data

Results flagged for a closer look

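In 4 of 35 groups of values examined, 1 nucleoid library lay far from the other 9, by Dixon's criterion, which chance meets in about 1 in 20 groups, or 1.75 of 35. Nucleoid replicate 11, the shallowest nucleoid library, had the lowest signal in rps2, at 94.4% of the genome mean against 105% to 116% in the others, and in rpl33, at 69.8% against 82.9% to 93.6%. Nucleoid replicate 4 had the highest signal in rps14, at 134% against 81.0% to 102%. Nucleoid replicate 2 had the highest signal in the 200 bp downstream of rps15, at 104% against 83.4% to 93.6%.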

How the results depend on the processing

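Of the 10 genes, 1 passed under pseudocounts of 0.1 and 10, median scaling, both other count filters and the first copy of rps7 alone. The count was 0 with a depth term, in libraries with more than 600000 counts, without naked replicates 9 to 11, with limma voom, with 200 bp added to or 50 bp taken off each end, and in 2 fits chosen after the data were seen, an unevenness term and a depth term without naked replicates 9 to 11. Over all 112 genes 38 passed, against 20 with a depth term, 15 in the deeper libraries, 26 without the 3 libraries, 36 with limma voom, 30 with 200 bp added, 33 with 50 bp taken off, 26 with the unevenness term and 23 with a depth term without the 3 libraries. Leaving out 1 library gave 0 to 1 of the 10 genes and 30 to 43 of the 112. Of the 20 flanks, 5 passed, against 3 with median scaling or limma voom and 0 with a depth term, in the deeper libraries and without naked replicates 9 to 11. Over all flanks the counts were 45 with median scaling, 43 with limma voom, 0, 0 and 1. Leaving out 1 library gave 0 to 12 of the 20 and 1 to 119 over all. Of the 50 bp windows in the genes, 18 passed, against 5 with a depth term, 7 in the deeper libraries and 7 of the windows of 100 bp; over all windows the counts were 251, 172 and 287, and 400 without naked replicates 9 to 11. Leaving out 1 library gave 9 to 27 in the genes and 393 to 983 over all.

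Replicate numbers were not shown to pair the libraries. Deviations of the 10 same-numbered pairs correlated at -0.017 to 0.769, and 1 of 10 nucleoid libraries correlated best with its own number. This check cannot decide whether they are pairs, since libraries of unlike number also correlated, nucleoid replicate 2 with naked replicate 3 at 0.838. With a replicate block, 0 genes, 12 flanks and 30 windows of the 10 genes passed, against 33 genes, 105 flanks and 981 windows over all.

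The following signs turned in log2 fold changes that did not pass the test. Without naked replicates 9 to 11, rps2 was at 0.00033, rps4 at -0.083, rpl33 at -0.0060, the downstream flanks of rps4 at -0.013 and of rpl20 at -0.027. In the deeper libraries rps4 was at -0.11, rpl33 at -0.085, the downstream flanks of rps4 at -0.068 and of rpl20 at -0.034 and the upstream flank of rps2 at -0.086. With the unevenness term rps4 was at -0.16, rps16 at -0.057, rps18 at -0.094, rps15 at -0.17, rpl33 at -0.15 and rpl32 at -0.13. With a depth term without the 3 libraries rps4 was at -0.14, rps16 at -0.023, rps18 at -0.064, rps15 at -0.029 and rpl33 at -0.075. With median scaling rps4 was at -0.027 and the upstream flanks of rps2, rps14 and rps7 at -0.092, -0.11 and -0.057. With a depth term the upstream flanks of rps2 and rps14 were at -0.13 and -0.10, with limma voom at -0.048 and -0.0040. With 100 bp flanks those of rps2 and rps7 were at -0.16 and -0.075. With 200 bp added rps2 was at 0.025, and with the replicate block at 0.00065. Leaving out 1 library gave -0.023 to 0.016 for rps2 and -0.00054 to 0.16 for rps4. The cause was not tested. The fewest counts behind a value of rps15 and rpl32 were 11 and 25, both in naked replicate 11, whereas the shallower naked replicate 6 held 126 and 72. The rps16 exons were not analysed here.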
